A study of Arabidopsis thaliana with 8 samples.

Results

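The expansin family was followed in messenger RNA of roots and shoots of Arabidopsis thaliana. Members were the rows of the deposited table whose gene name was EXPA, EXPB, EXLA or EXLB followed by a number, which gave 31 of 33199 genes. They comprised 21 alpha-expansins (EXPA), 6 beta-expansins (EXPB), 3 members of expansin-like A (EXLA) and 1 of expansin-like B (EXLB). The table lists 4 further expansins with the prefix AT, as ATEXPA1, ATEXPA10, ATEXPA12 and ATEXPA14. These fell outside the name rule and are described separately, under the names EXPA1, EXPA10, EXPA12 and EXPA14. Root (4 libraries) was set against shoot (4 libraries), all from the accession Col-0, with no mutation, transgene or treatment named in the labels. Plant age, growth medium and harvest were not used here, because the growth text attached to these samples describes another species.

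Expansins are small secreted proteins that loosen the plant cell wall so that turgor can stretch it. They act most strongly when the wall is acidic, and they disrupt contacts between cellulose and other wall polymers without cutting them. Alpha-expansins act mainly on walls of the kind found in Arabidopsis, beta-expansins are best known from grasses, where they include pollen allergens, and a wall-loosening activity of expansin-like proteins has not been firmly established. In Arabidopsis, individual members have been tied to root hairs, to emerging lateral roots, to germinating seeds and to growing leaves.

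Genes held 9857791 to 12460762 reads per root library and 10044638 to 11662309 per shoot library. Levels are in FPKM (fragments scaled by gene length and by library size), as computed by the authors, and are per length, so they can be compared between genes. At a gene length of 1 kb, 3 reads in 1 library correspond to 0.192 to 0.375 FPKM. Means are ± SD over 4 libraries per tissue, and each log2 fold change is root minus shoot, computed after 0.5 was added to every FPKM value, so changes of low genes come out smaller than they are. Tests were made with limma on the 20314 genes that reached 0.5 FPKM in at least 4 of 8 libraries, with p adjusted over all of them, and an adjusted p under 0.05 was called. Separate plants or cultures are not stated for the samples, so these p-values rest on the spread between samples, which may be technical. The tissues matched their labels: 7 of 7 tested root markers were higher in root and 7 of 7 shoot markers were higher in shoot. Over all genes tested, 37.6% were higher in root and 32.0% higher in shoot. PIN2, PLT1, PLT2 and SMB stayed below 0.5 FPKM in every shoot library, and FIL in every root library. These markers passed the filter only through their own tissue, so their direction follows from it. ESB1, also on the root list, did not pass the filter, with 29 reads in root, 12 in shoot and overlapping values. RNA was taken in bulk, so a lower level cannot be told apart from fewer cells of an expressing type.

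Most expansins that could be tested differed between the organs, and more of them were higher in root than in shoot. Of the 31 members, 20 passed the filter on low values, and of these 12 were higher in root and 6 higher in shoot, while 2 (EXLA1 and EXPA11) did not pass the test. Calls were the rule in this comparison: 69.6% of all genes tested were called, 37.6% as higher in root and 32.0% as higher in shoot. The values of the 2 tissues did not overlap for 18 of the 20, with root above shoot in 12, against 64.8% of all genes tested without overlap and 34.7% with root above. All shoot values of EXPA7, EXPA17, EXPA18, EXPB1 and EXPB2, and all root values of EXPA5 and EXPA16, were below 0.5 FPKM. Such genes pass the filter only through the other tissue, so their direction and lack of overlap follow from it. A difference of at least 2-fold together with a call was found for 10 members higher in root (20.9% of all genes) and 6 higher in shoot (18.1% of all genes). The median log2 fold change of the 20 was 1.12, against 0.07 over all genes tested. When reads were scaled by library totals alone, the median of all genes moved to 0.58, 12142 genes were called toward root and 3997 toward shoot, against 7630 toward root and 6500 toward shoot with the authors' scaling, and for the expansins these counts became 14 toward root and 6 toward shoot.

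**Figure D1:**
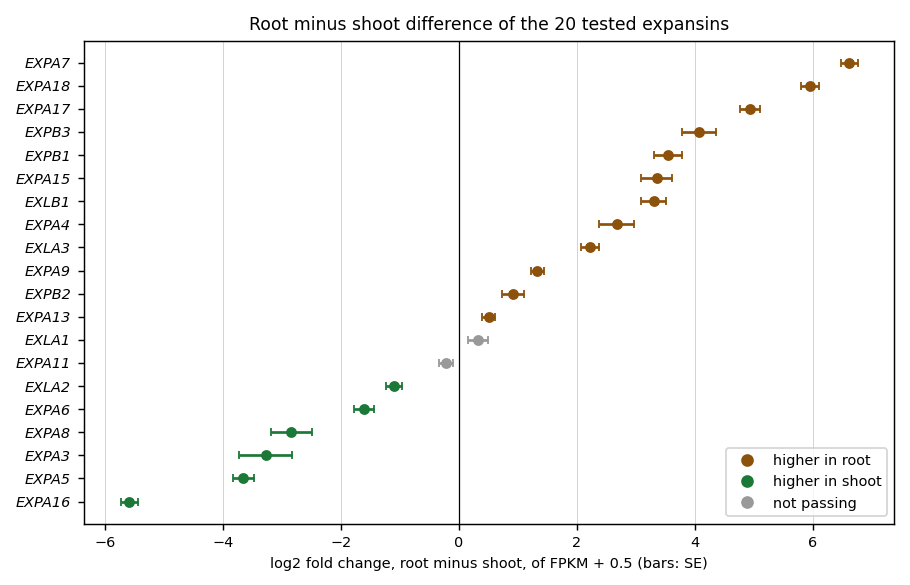
Log2 fold change of FPKM + 0.5, root minus shoot, of the 20 tested expansins (points) with its standard error (bars), from limma on 4 root and 4 shoot libraries. Values run from 6.62 for EXPA7 to -5.59 for EXPA16, and the 2 members in grey, EXLA1 and EXPA11, did not pass the test.

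The widest root-to-shoot gaps belonged to EXPA7 and EXPA18, the alpha-expansins of root hairs. Both are known targets of the root hair regulators RHD6 and RSL4, basic helix-loop-helix proteins that bind a short promoter sequence called the root hair element (RHE). EXPA7 (AT1G12560, chr1:4276505-4277969 in TAIR10) had 45.4, 50.2, 40.3 and 60.3 FPKM in root libraries 1 to 4, against 0 reads in each of the 4 shoot libraries. It thus had 2915 reads in root and none in shoot. Against a limit of 3 reads over the 4 shoot libraries it was at least 639-fold higher in root, and its log2 fold change was 6.62 (SE 0.14, adjusted p = 1.17e-10). EXPA18 (AT1G62980, chr1:23331563-23333246) had 24.0, 33.0, 28.4 and 38.3 FPKM in root libraries 1 to 4 and 0 reads in each shoot library. In both genes root library 4 was highest and root library 2 next, and the lowest was root library 3 for EXPA7 and root library 1 for EXPA18. From 2046 root reads, EXPA18 was at least 451-fold higher in root, with a log2 fold change of 5.95 (SE 0.16, adjusted p = 2.84e-10).

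The upstream sequences of these genes are shown because they were the 2 of the 31 members in which the RHE was found (6.45%), against 238 of 27419 protein-coding genes (0.868%). The pattern searched for was the element known from EXPA7 and EXPA18 themselves. Their matches were therefore fixed in advance, and the 2 percentages are no evidence of enrichment. The window searched ran from 250 bases before to 50 bases after the annotated start, on both strands, and a match is a description of letters, not of binding. The 250 bases before each start are printed 5′ to 3′ on the gene's strand, from RefSeq's TAIR10.1 assembly, with the RHE match in capitals. They come from chr1:4276255-4276504 (plus strand) for EXPA7 and chr1:23331313-23331562 (plus strand) for EXPA18.
EXPA7: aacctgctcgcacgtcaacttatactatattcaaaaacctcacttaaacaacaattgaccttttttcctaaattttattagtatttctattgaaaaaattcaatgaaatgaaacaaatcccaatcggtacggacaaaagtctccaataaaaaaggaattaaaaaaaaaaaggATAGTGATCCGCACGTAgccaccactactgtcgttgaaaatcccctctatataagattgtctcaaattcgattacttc
EXPA18: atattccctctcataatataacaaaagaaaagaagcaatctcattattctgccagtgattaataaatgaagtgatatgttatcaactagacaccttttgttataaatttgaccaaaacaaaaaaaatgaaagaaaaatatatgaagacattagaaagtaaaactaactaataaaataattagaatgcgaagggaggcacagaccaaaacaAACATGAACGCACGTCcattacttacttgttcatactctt
The match began at base -78 in EXPA7 and at base -40 in EXPA18, counted from the start, and EXPA18 held another match that began at base 6 of the gene. Among all genes with this element in the same window, 175 were tested. Of these, 109 (62.3%) were higher in root, against 37.6% of all genes tested, and 33 were higher in shoot, against 32.0%. The 175 include EXPA7 and EXPA18, from which the pattern is known. Of 23 root hair genes found in the table, 4 held the element (PRP1, PRP3, LRX1 and MRH6), and the 4 were higher in root. Every shoot value of these 4 was below 0.5 FPKM. They passed the filter only through root, so their direction follows from it.

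Root hair genes as a group were read beside EXPA7 and EXPA18. The list also holds regulators of epidermal cell fate, among them WER and GL2, which act in non-hair cells. Of 22 listed genes tested, 18 were called toward root, WER included, against 37.6% of all genes tested, and 0 toward shoot, against 32.0%. The other 4 (GL2, ETC1, SCN1 and ROP2) did not pass, and the median log2 fold change of the 22 was 3.15. With shoot library 3 left out, 1 of the 22 was higher in shoot. RHD6, RSL1, RSL2, RSL4, LRL3, PRP1, PRP3, LRX1, MRH6 and COBL9 stayed below 0.5 FPKM in every shoot library. Such genes passed the filter only through root, so their direction follows from it. PRP3, a proline-rich wall protein of root hairs, averaged 84.3 ± 26.7 FPKM in root and had 2 reads over the 4 shoot libraries (log2 fold change 7.22, adjusted p = 6.06e-10). RHD6 averaged 9.10 ± 1.11 FPKM in root and had 0 reads in shoot, and RSL4 averaged 11.4 ± 4.84 FPKM in root and also had 0 reads in shoot. These 2 regulators are named for their known place upstream of EXPA7 and EXPA18, after their values were seen.

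EXPA17, an alpha-expansin known downstream of LBD18 in lateral root emergence, was likewise close to absent from shoot. EXPA17 (AT4G01630) had 19.4, 13.3, 16.6 and 15.1 FPKM in root libraries 1 to 4, against 0, 0, 0.182 and 0 FPKM in shoot libraries 1 to 4. Its 965 root reads stood against 2 shoot reads, both in shoot library 3, and the ratio of read rates was 314 (95% counting interval 86.6 to 2593). The log2 fold change was 4.93 (SE 0.17, adjusted p = 1.46e-09). Of 11 lateral root regulators tested, 10 were called toward root, against 37.6% of all genes tested, and 0 toward shoot, against 32.0%. ARF7 did not pass, and the median of the 11 was 2.1. The most abundant in root was IAA28, an auxin response repressor, at 56.6 ± 8.49 FPKM in root and 5.48 ± 0.834 FPKM in shoot (log2 fold change 3.25), whereas in shoot ARF7, an auxin response factor, was above it, with 13.4 ± 3.12 FPKM in root and 13.4 ± 0.804 FPKM in shoot. LBD18 itself, a transcription factor named here after its value was seen, was low, with 1.40 ± 0.305 FPKM in root and 0.208 ± 0.135 FPKM in shoot (log2 fold change 1.43, adjusted p = 6.44e-05). LBD16, LBD18, LBD29, LBD33, GATA23 and PUCHI stayed below 0.5 FPKM in every shoot library. Like EXPA17, they passed the filter only through root, so their direction follows from it.

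The remaining alpha-expansins called higher in root were present in both organs. EXPA4 (AT2G39700), the most abundant member in root, had 86.2, 75.0, 102.5 and 85.5 FPKM in root libraries 1 to 4, against 21.2, 6.25, 14.7 and 15.3 FPKM in shoot libraries 1 to 4. Every root library was above every shoot library, and shoot library 2 stood lowest. EXPA4 was 6.08-fold higher in root by mean FPKM, with a log2 fold change of 2.67 (SE 0.29, adjusted p = 1.16e-05). EXPA15 (AT2G03090) had 38.8, 39.6, 61.8 and 63.7 FPKM in root libraries 1 to 4, against 6.90, 2.61, 4.60 and 4.46 FPKM in shoot libraries 1 to 4. Root libraries 3 and 4 were the higher ones, the tissues did not overlap, and the log2 fold change was 3.35 (SE 0.26, adjusted p = 6.54e-07). EXPA9 (AT5G02260) had 45.2, 39.2, 48.1 and 53.3 FPKM in root libraries 1 to 4, against 19.7, 18, 15.9 and 19.3 FPKM in shoot libraries 1 to 4. Its tissues were apart with little spread in either, and its log2 fold change was 1.32 (SE 0.11, adjusted p = 1.35e-06). EXPA13 differed least among the called members, at 13.1 ± 1.57 FPKM in root and 9.01 ± 0.533 FPKM in shoot (log2 fold change 0.51, adjusted p = 0.00192).

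The alpha-expansins EXPA3, EXPA5, EXPA6, EXPA8 and EXPA16 were higher in shoot, and EXPA16 and EXPA5 were nearly silent in root. EXPA16 (AT3G55500) had 0.102, 0, 0.0563 and 0.0659 FPKM in root libraries 1 to 4, against 27.8, 26.2, 21.2 and 30.7 FPKM in shoot libraries 1 to 4. These root values rest on 4 reads in all, against 1148 reads in shoot, and the log2 fold change was -5.59 (SE 0.15, adjusted p = 2.91e-10). EXPA5 (AT3G29030), known for its part in growth promoted by brassinosteroids, had 0.135, 0.177, 0 and 0.0578 FPKM in root libraries 1 to 4, against 6.05, 7.97, 5.81 and 8.29 FPKM in shoot libraries 1 to 4. Shoot was above root throughout, with 7 root reads against 347 shoot reads, and the log2 fold change was -3.66 (SE 0.18, adjusted p = 1.48e-08).

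EXPA3 (AT2G37640), the most abundant member in shoot, was the most uneven one in root. It had 8.0, 4.82, 1.22 and 1.53 FPKM in root libraries 1 to 4, against 28.8, 44.6, 32.0 and 32.5 FPKM in shoot libraries 1 to 4. Root libraries 1 and 2 were clearly above root libraries 3 and 4, yet all were below every shoot library. Its coefficient of variation in root was 81.9%, against a median of 16% over the 17 members with a mean over 1 FPKM there. The log2 fold change was -3.28 (SE 0.44, adjusted p = 6.26e-05), and -4.21 (adjusted p = 6.32e-07) without root libraries 1 and 2. Those 2 libraries also held the highest summed level of the 7 shoot markers, at 372.1, 236.6, 57.8 and 72.3 FPKM in root libraries 1 to 4. As a share of the mean sum in shoot this was 0.616%, 0.392%, 0.0957% and 0.120%, while EXPA3 in the same libraries reached 23.2%, 14%, 3.55% and 4.43% of its own shoot mean. The marker FIL, a transcription factor of the leaf underside, had 0 reads in the 4 root libraries, and the part of shoot RNA in the root values of EXPA3 was not tested.

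EXPA6 and EXPA8 were higher in shoot and still present in root. EXPA6 (AT2G28950) had 5.39, 5.83, 9.34 and 7.73 FPKM in root libraries 1 to 4, against 20.3, 20.2, 22.9 and 25.9 FPKM in shoot libraries 1 to 4. All shoot values lay above all root values, and the log2 fold change was -1.62 (SE 0.17, adjusted p = 7.22e-06). EXPA8 averaged 1.32 ± 0.501 FPKM in root and 13.6 ± 7.76 FPKM in shoot (log2 fold change -2.85, SE 0.35, adjusted p = 2.79e-05). Its shoot values were widely spread, from 7.56 FPKM in library 1 to 24.4 FPKM in library 2. EXPA11 (AT1G20190) was not shown to differ, with 16.9, 17.4, 16.7 and 20.1 FPKM in root libraries 1 to 4 and 18.1, 24.6, 18.8 and 22.4 FPKM in shoot libraries 1 to 4. Its ranges overlapped, and its log2 fold change of -0.23 (SE 0.12, adjusted p = 0.107) became 0.32 (adjusted p = 0.0123) under scaling by library totals alone.

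**Figure D2:**
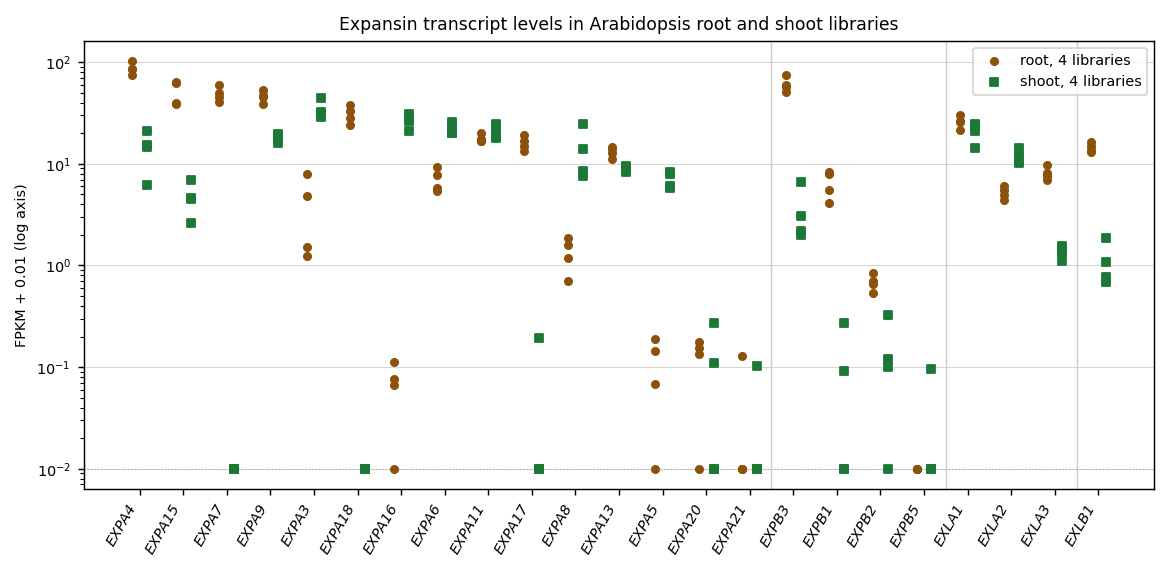
FPKM + 0.01 on a log axis of the 23 expansins with at least 1 read, in 4 root libraries (circles) and 4 shoot libraries (squares), ordered within EXPA, EXPB, EXLA and EXLB. Points on the dotted line at 0.01 are libraries with 0 reads, as in shoot for EXPA7 and EXPA18, whose root libraries lie between 24.0 and 60.3 FPKM.

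The 3 beta-expansins that passed the filter were higher in root. EXPB3 (AT4G28250), the second most abundant expansin in root, had 50.7, 56.6, 75.0 and 59.9 FPKM in root libraries 1 to 4, against 6.56, 1.97, 3.06 and 2.20 FPKM in shoot libraries 1 to 4. Shoot library 1 was the highest of the shoot libraries, the coefficient of variation in shoot was 61.7%, and the tissues did not overlap (log2 fold change 4.07, SE 0.29, adjusted p = 3.34e-07). EXPB1 (AT2G20750) had 5.53, 4.08, 8.35 and 7.94 FPKM in root libraries 1 to 4, against 0, 0.0819, 0.262 and 0 FPKM in shoot libraries 1 to 4. The gene had 534 root reads and 5 shoot reads, the root libraries all stood above the shoot libraries, and the log2 fold change was 3.55 (SE 0.24, adjusted p = 2.31e-07). EXPB2 (AT1G65680) was low in both organs, with 0.642, 0.691, 0.835 and 0.527 FPKM in root libraries 1 to 4, against 0.315, 0, 0.0911 and 0.110 FPKM in shoot libraries 1 to 4. These values come from 40 root reads and 5 shoot reads and gave a log2 fold change of 0.92 (SE 0.19, adjusted p = 0.00132). EXPB2 passed the filter through its root values alone, so the lack of overlap between its tissues follows from the filter.

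The expansin-like members went 3 ways. EXLA1 (AT3G45970) had 21.6, 26.6, 25.9 and 30.1 FPKM in root libraries 1 to 4 and 24.4, 14.3, 21.1 and 24.4 FPKM in shoot libraries 1 to 4. The tissues overlapped, and the log2 fold change of 0.32 (SE 0.17, adjusted p = 0.114) became 0.87 (adjusted p = 0.00119) under scaling by library totals alone. EXLA2 (AT4G38400), which has been linked to susceptibility to the fungus Botrytis, was higher in shoot. It had 4.94, 5.53, 4.38 and 6.0 FPKM in root libraries 1 to 4, against 10.7, 10.1, 12.2 and 14.4 FPKM in shoot libraries 1 to 4 (log2 fold change -1.11, SE 0.14, adjusted p = 3.96e-05). EXLA3 (AT3G45960) was higher in root, with 6.97, 8.06, 9.83 and 7.65 FPKM in root libraries 1 to 4, against 1.35, 1.10, 1.53 and 1.41 FPKM in shoot libraries 1 to 4. Neither EXLA2 nor EXLA3 overlapped between tissues, and the log2 fold change of EXLA3 was 2.22 (SE 0.15, adjusted p = 2.02e-07). EXLB1 (AT4G17030), the sole member of its subfamily, had 15.1, 13.2, 16.6 and 13.7 FPKM in root libraries 1 to 4, against 1.85, 0.671, 1.07 and 0.757 FPKM in shoot libraries 1 to 4. Root was above shoot in every library, with a log2 fold change of 3.30 (SE 0.21, adjusted p = 1.48e-07).

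The 11 members that did not reach the filter were at or near 0 in both organs. No read was listed for EXPA2, EXPA22, EXPA23, EXPA24, EXPA25, EXPA26, EXPB4 and EXPB6 in any of the 8 libraries. EXPA20 had 7 reads in root and 4 in shoot, EXPA21 had 2 in root and 1 in shoot, and EXPB5 had 0 in root and 1 in shoot. EXPA2 is known from germinating seeds, and of 18 flower, pollen and seed markers 2 passed the filter and 6 also had 0 reads in all libraries. EXPA21 to EXPA26 lie next to each other on chr5:15726243-15740605 in TAIR10, a span of 14363 bases that held 2 root reads and 1 shoot read. The coding sequences of EXPA22 and EXPA26 were 97.7% identical and those of EXPA23 and EXPA25 97.1%, and whether reads shared by such copies were discarded before deposit is not given in the sources used here, so values of 0 for these 4 genes are uncertain.

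In root, the levels of the leading members followed in the order EXPA4, EXPB3, EXPA15, EXPA7 and EXPA9, and each overlapped with its neighbour over the 4 libraries. The ranges first parted between EXPA9 and EXPA18, then between EXLA1 and EXPA11 and between EXPA13 and EXLA3, while 13 neighbouring pairs of members with means over 1 FPKM overlapped. In shoot, EXPA3, EXPA16, EXPA6, EXLA1, EXPA11, EXPA9, EXPA4, EXPA8 and EXLA2 followed each other with no gap between neighbours. Gaps in shoot lay between EXLA2 and EXPA13 and between EXPB3 and EXLA3, and 12 neighbouring pairs overlapped.

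Summed over the 31 members, expansin transcripts came to 408.2, 407.5, 481.2 and 486.7 FPKM in root libraries 1 to 4, against 210.6, 212.2, 193.9 and 224.4 FPKM in shoot libraries 1 to 4. The root mean of 445.9 ± 44.0 FPKM was 2.12 times the shoot mean of 210.3 ± 12.6 FPKM. Subfamilies contributed unequally: alpha-expansins summed to 324.2 ± 31.9 FPKM in root and 171.3 ± 13.8 FPKM in shoot, and beta-expansins to 67.7 ± 12.0 FPKM in root and 3.68 ± 2.22 FPKM in shoot. EXLA genes summed to 39.4 ± 4.27 FPKM in root and 34.2 ± 6.23 FPKM in shoot. EXPA4 alone made up 19.6% of the root sum and EXPA3 16.4% of the shoot sum, and the 6 most abundant members made up 72.9% of the root sum and 68.2% of the shoot sum.

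The 4 expansins listed with the prefix AT changed this picture of the totals. EXPA1, known from guard cells and from auxin-driven growth, had 50.3, 41.1, 34.9 and 27.8 FPKM in root libraries 1 to 4, against 204.9, 212.6, 121.4 and 133.9 FPKM in shoot libraries 1 to 4. It was higher in shoot (log2 fold change -2.10, SE 0.22, adjusted p = 8.37e-06) and, counted in, made up 42.1% of the shoot expansin sum. EXPA10, known for leaf and petiole growth, was higher in shoot, with 2.02 ± 0.818 FPKM in root and 19.2 ± 5.19 FPKM in shoot (log2 fold change -3.00, adjusted p = 1.6e-06). EXPA14, which like EXPA17 has been placed downstream of LBD18, was higher in root, with 8.90 ± 1.08 FPKM in root and 1.49 ± 0.555 FPKM in shoot (log2 fold change 2.28, adjusted p = 2.29e-06). EXPA12 averaged 4.63 ± 1.66 FPKM in root and had 1 read in shoot, a ratio of read rates of 187 (95% counting interval 33.3 to 7418). EXPA12 passed the filter only through root, so its direction follows from it. Over the 35 genes the sums were 500.0 ± 37.4 FPKM in root and 399.2 ± 55.7 FPKM in shoot, a ratio of 1.25. Among 24 tested genes, 14 were called toward root, against 37.6% of all genes tested, and 8 toward shoot, against 32.0%.

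**Figure D3:**
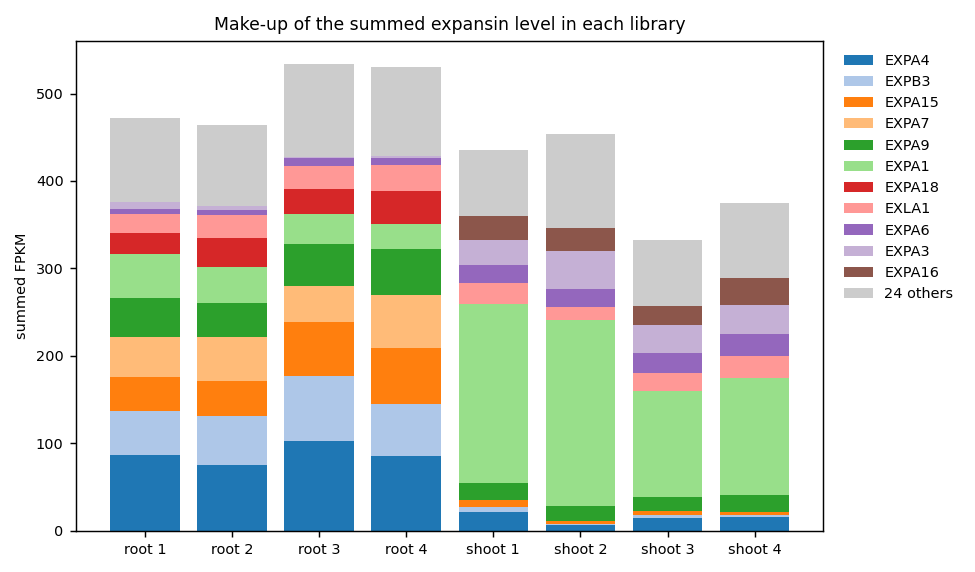
Summed FPKM of the 35 expansins, those listed with the prefix AT included, stacked by gene in each of 4 root and 4 shoot libraries. EXPA4, EXPB3, EXPA15, EXPA7 and EXPA9 fill the lower part of each root bar, whereas EXPA1 is the largest segment of each shoot bar (121.4 to 212.6 FPKM).

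Expansins closest to each other in coding sequence did not always share an organ. Identity over all 465 pairs of the 31 members ran from 34.8% to 97.7% with a median of 48.2%, counted over the longer sequence of each pair. EXPA7 and EXPA18 (71.1% identical) were each other's closest relative and were both called higher in root, as were EXPB1 and EXPB3 (75.5%). EXPA4 and EXPA16 (80.2%) were called in opposite directions, with log2 fold changes of 2.67 and -5.59. EXPA9 and EXPA3 (73.9%) were likewise opposed, with 1.32 and -3.28. EXLA1 and EXLA3 (86.0%), which lie 2012 bases apart on chromosome 3, differed in that EXLA3 was called and EXLA1 was not. EXPA17 and EXPA11 (65.0%) also split, EXPA17 being higher in root and EXPA11 not passing. EXPA15, higher in root, had as its closest relative EXPA10 (73.3%), higher in shoot and one of the genes listed with the prefix AT.

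**Figure D4:**
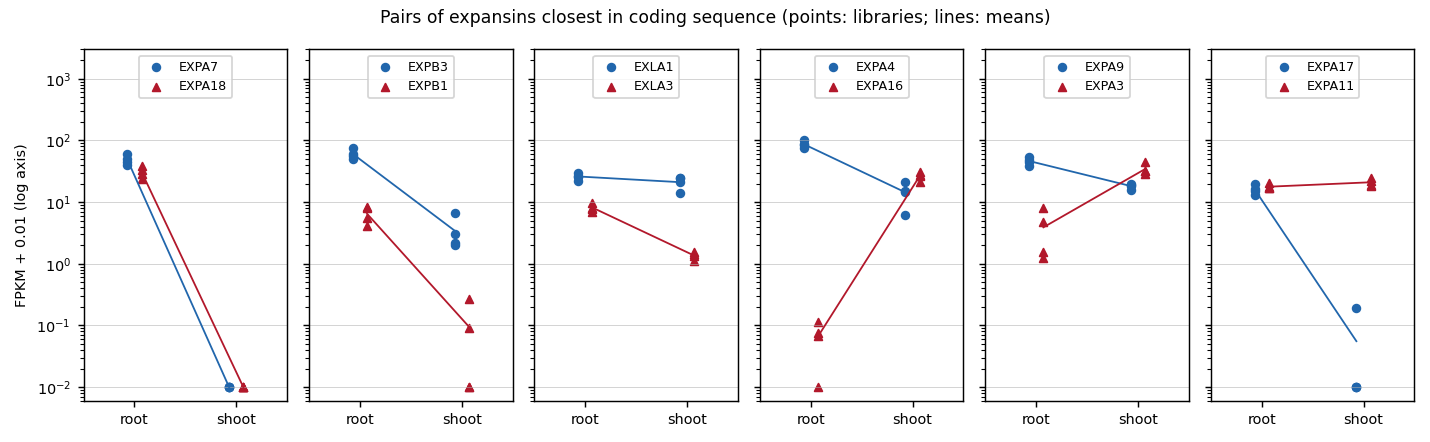
FPKM + 0.01 on a log axis in 4 root and 4 shoot libraries (points) with the tissue means joined by lines, for 6 pairs of expansins that are each other's closest relative in coding sequence. The lines run the same way for EXPA7 with EXPA18 and EXPB3 with EXPB1 and cross for EXPA4 with EXPA16 and EXPA9 with EXPA3.

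The level of an expansin in the organ where it was lower varied between libraries. In shoot libraries 1 to 4, EXPA4 stood at 24.3%, 7.16%, 16.9% and 17.5% of its root mean and EXPB3 at 10.8%, 3.26%, 5.05% and 3.63% of its own. EXPA15 stood at 13.5%, 5.13%, 9.02% and 8.76% and EXLB1 at 12.7%, 4.58%, 7.32% and 5.16%, so that for these 4 genes shoot library 1 was highest and shoot library 2 lowest. EXPB2 was also highest in shoot library 1 (46.75%) and lowest in shoot library 2 (0), though on 5 shoot reads in all. Other orders occurred too among members called higher in root: EXLA3 (13.5% to 18.9%) and EXPA13 (63.4% to 73.2%) were highest in shoot library 3, and EXPA9 (34.2% to 42.5%) was lowest there. EXPB1 was at 0 in shoot libraries 1 and 4 and highest, at 4.04%, in shoot library 3. The 8 root markers summed to 0.867%, 0.451%, 0.681% and 1.07% of their root mean in the same libraries, where shoot library 4 was highest and shoot library 2 lowest. PLT1, PLT2 and SMB, transcription factors of the root tip, had 0 reads in each shoot library. The part of root RNA in the shoot values of these expansins was not tested.

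**Figure D5:**
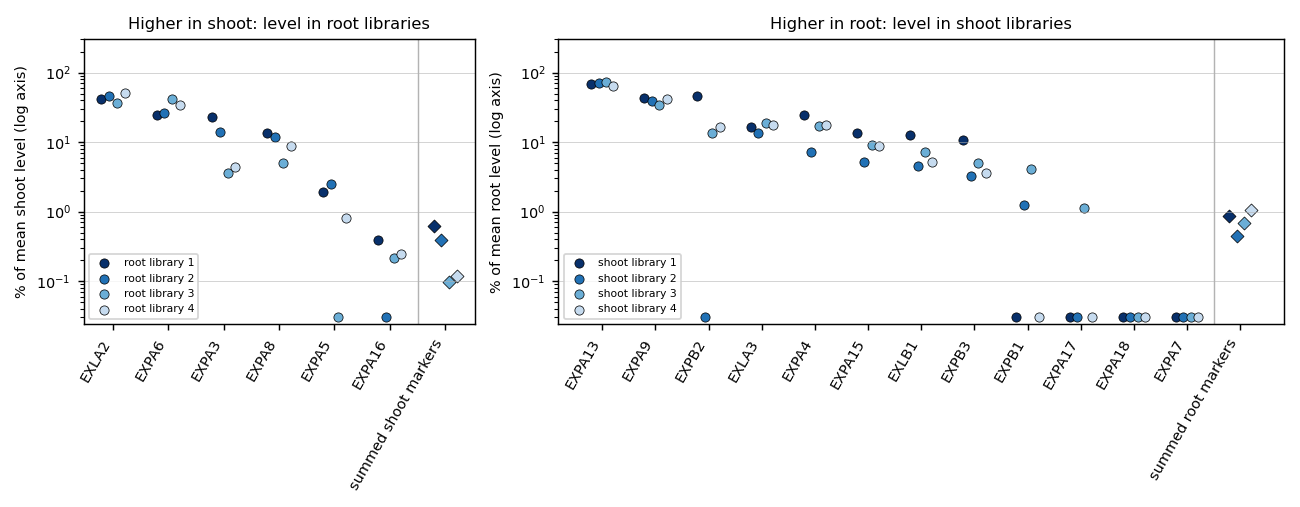
Level of each called expansin in the organ where it was lower, as a percent of its mean in the other organ (log axis, 0 drawn at 0.03), in root libraries for those higher in shoot (left) and in shoot libraries for those higher in root (right). Diamonds give the summed shoot or root markers, which stayed at or below 1.07%, whereas EXPA3 reached 23.2% in root library 1 and EXPA4 24.3% in shoot library 1.

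Expansins work at low wall pH, which plasma membrane proton pumps (AHA proteins) bring about. Of 21 tested genes of apoplast acidification, 6 were called toward root, against 37.6% of all genes tested, and 14 toward shoot, against 32.0%. AHA8 did not pass, and the median log2 fold change of the 21 was -0.67. Under scaling by library totals alone, 7 were called toward root and 10 toward shoot. With the authors' scaling the pump genes were divided, with AHA2, AHA4, AHA7 and AHA10 toward root and AHA1, AHA3, AHA5 and AHA11 toward shoot. The other shoot calls included SAUR63 and each of SAUR19 to SAUR24. All of these SAUR genes but SAUR21 stayed below 0.5 FPKM in every root library, as AHA7 did in every shoot library. They and AHA7 passed the filter only through the organ where they were higher, so their direction follows from it. The pump gene AHA2, the most abundant in root, was higher in root, with 350.7 ± 36.5 FPKM in root and 104.9 ± 18.8 FPKM in shoot (log2 fold change 1.75, adjusted p = 1e-06). The most abundant pump gene in shoot was AHA1, with 126.4 ± 17.3 FPKM in root and 155.2 ± 9.82 FPKM in shoot. The signal peptide gene RALF1, known to inhibit the pumps through the receptor FERONIA, was also higher in root, with 207.4 ± 14.2 FPKM in root and 9.97 ± 1.74 FPKM in shoot (log2 fold change 4.32). SAUR63, of a family that relieves inhibition of the pumps, was higher in shoot, with 3 reads in root and 138 in shoot (log2 fold change -3.52, adjusted p = 1.85e-06).

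Genes that make wall polymers expansins act between were called in both directions. Of 20 tested genes of xyloglucan and primary-wall cellulose synthesis, 8 were called toward root, against 37.6% of all genes tested. Toward shoot 4 were called, against 32.0%, and 8 did not pass, with a median of 0.04 over the 20. Under scaling by library totals alone these counts were 13 higher in root and 0 higher in shoot. CESA3, a catalytic subunit of cellulose synthase, averaged 153.3 ± 8.48 FPKM in root and 167.2 ± 19.3 FPKM in shoot (log2 fold change -0.12, adjusted p = 0.314). CSLC12, a xyloglucan backbone synthase, was higher in root at 7.19 ± 2.20 FPKM in root and 0.769 ± 0.280 FPKM in shoot (log2 fold change 2.59), and its relative CSLC4 was higher in shoot at 21 ± 2.17 FPKM in root and 35.7 ± 4.87 FPKM in shoot (log2 fold change -0.75). Of 17 tested regulators of cell elongation, 2 were called toward root, against 37.6% of all genes tested, and 13 toward shoot, against 32.0%. The other 2 did not pass, and the median of the 17 was -1.04. Scaling by library totals alone gave 4 toward root and 11 toward shoot. PRE1 and PIF4 stayed below 0.5 FPKM in every root library, and PRE4 in every shoot library. Their direction follows from the filter, which they passed only through the organ where they were higher. PIF5, a growth-promoting factor repressed by light, had the lowest log2 fold change on the scale with 0.5 added, at 1.77 ± 1.40 FPKM in root and 91.4 ± 12.2 FPKM in shoot (log2 fold change -5.55). By the ratio of mean FPKM the related factor PIF4, named after its value was seen like AHA1 and ARF7, was further apart, at 0.237 FPKM in root and 31.6 FPKM in shoot (134-fold higher in shoot, against 51.7-fold for PIF5). A further list held 10 markers of guard cells and of the stomatal lineage that forms them (the latter including SPCH, MUTE, TMM and EPF2). All 10 were higher in shoot, against 32.0% of all genes tested, with a median of -3.84. KAT1, SLAC1, FAMA, TMM, EPF2, SPCH and MUTE stayed below 0.5 FPKM in every root library. Those genes passed the filter only through shoot, so their direction follows from it.

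Beyond the RHE, 4 further motifs were searched on both strands of the same window in the 31 members and in all 27419 protein-coding genes. The end of each RHE match printed above shares the letters CACGT with the G-box, and no other motif contains another. The auxin response element TGTCTC was found in 4 members (12.9%, against 14.2% of all), namely EXPA5, EXPA6, EXPA7 and EXPA8. The G-box CACGTG was found in EXPB2 alone (3.23%, against 7.67%). TAACAA, a gibberellin-related element, was found in 8 members (25.8%, against 34.6%) and the TATA box TATAAA in 19 (61.3%, against 52.2%).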

How the data were processed

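Poly(A)-selected RNA from 4 root and 4 shoot samples was sequenced, by steps that do not mark strand per the labels' protocols. The submitters' processing notes name the TAIR10 build, HISAT2 2.0.5 and featureCounts 1.5.0-p3. For strand setting, annotation release and the treatment of reads shared between genes, the choice is not given in the sources used here. Values in the deposited table are FPKM made by the authors, with a scaled library size, as worked out from the values: multiplied by gene length and divided by a unit found for its library, every value is a whole number within 1.37e-09, which gives back the reads. Library sizes used by the authors were 1.18 to 1.25 times the read totals in root and 0.770 to 0.865 times in shoot.

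Groups came from the tissue in the labels. The test was limma 3.58.1 (R 4.3.3) on log2(FPKM + 0.5) with a variance trend, for genes that reached 0.5 FPKM in 4 or more of 8 libraries (20314 genes, 99.9% of reads), two-sided, with Benjamini and Hochberg's adjustment over all of them, and was tested on simulated data. For a tissue without reads, folds are bounds against 3 reads over its 4 libraries. With 1 to 3 reads, the ratio has an exact 95% interval. Both cover counting error only. Libraries of 1 tissue differed beyond sampling noise (chi-square of 6.94 to 21.0 per gene), so none was treated as a copy.

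Members and lists were chosen with earlier results of these data known. Values in every library are given for the 6 highest members of each tissue, the 3 largest called changes in each direction and all tested EXPB, EXLA and EXLB genes. From each list the most abundant gene and the largest called changes may be named. Of 140 list members, 139 were matched. Coding sequences were aligned with Biopython 1.88, in place of proteins, and motifs were searched in RefSeq's TAIR10.1, whose gene starts and ends matched the table for 32520 of 32548 shared genes. Alternatives were 2 other scalings, pseudocounts of 0.1 and 1, other filters, limma-voom on recovered reads, a replicate block, leaving out each library and, added after seeing the data, leaving out root libraries 1 and 2 together.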

Additional observations from a re-analysis of the deposited data

How the results depend on the processing

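Of the 20 tested expansins, 18 kept their direction and their side of the threshold in every one of the 17 alternatives that tested them. EXPB2 dropped out under the filter of at least 1 FPKM in 4 libraries, which left 19 expansins tested, 11 of them higher in root. The exceptions arose under scaling by library totals alone, where EXLA1 passed the test (log2 fold change 0.87) and EXPA11 changed direction to 0.32. That scaling called 12142 genes toward root and 3997 toward shoot, 4 regulators of cell elongation higher in root, 1 flower, pollen or seed marker higher in shoot, and 13 xyloglucan and cellulose genes higher in root with 0 higher in shoot. It set the summed FPKM of the 31 expansins at 539.2 in root and 173.1 in shoot, of EXPA at 392.0 in root and 140.8 in shoot, of EXPB at 81.9, EXLA at 47.6 and EXLB at 17.8 in root, and of the 35 genes at 604.9 in root and 328.3 in shoot, since it replaces the authors' library sizes. Without a filter, 2 flower, pollen or seed markers were higher in root, and without root libraries 1 and 2, 1 was higher in shoot. Over fits that left out 1 library, markers of that list higher in shoot ranged from 1 to 2 and root hair genes higher in shoot from 0 to 1, and the cause was not tested. The fit with the replicate number as a block called 12 expansins toward root and 6 toward shoot, and over all genes 7593 toward root and 6511 toward shoot. Same-numbered root and shoot libraries deviated together at most weakly, with correlations of 0.0152 to 0.0710, against -0.0617 to 0.0263 for differently numbered ones. Such a comparison between 2 organs cannot decide whether equal numbers mean the same plants. Members with few reads, such as EXPB2, are limited by depth.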
